A study of Mus musculus with 9 samples.

Results

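The 31 genes described here belong to the antioxidant programme of the transcription factor NRF2 and to the glutathione, thioredoxin and pentose phosphate systems it serves. They were taken by symbol from the count tables. All 31 of 31 symbols were found among 22173 genes, and all 31 were among the 12094 genes abundant enough to test. The RNA came from wild-type primary murine bone marrow-derived neutrophils held for 2 days in GelMA hydrogel, a methacryloyl-modified gelatin that can be crosslinked to a set stiffness. The medium was RPMI 1640 with 10% serum, shared by every group. The groups were low (1.5 kPa, the control), middle (2.6 kPa) and high (5.7 kPa) stiffness, with 3 libraries each, numbered 1 to 3. The labels do not say whether the numbered libraries came from separate mice or cultures, so the p-values measure a spread between libraries that may be technical only. They give no purity for the cells.

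NRF2, the product of Nfe2l2, is held at a low level by KEAP1, which passes it to a ubiquitin ligase. Oxidants and electrophiles modify KEAP1, after which NRF2 accumulates, pairs with small MAF proteins and binds antioxidant response elements near its target genes. Those targets make and recycle glutathione, reduce thioredoxin and peroxiredoxins, and supply NADPH through the pentose phosphate pathway. In neutrophils the same NADPH also feeds the oxidase that makes superoxide. Only mRNA was measured here, not NRF2 protein, its position in the cell, or NADPH.

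The antioxidant response element has the core TGACNNNGC, which was searched on both strands from 250 bases before to 50 bases after each RefSeq gene start (build GRCm38.p6). Of the 31 genes, 28 had an entry; Gclc, Gsr and Prdx6 did not. A match was present in 10 of those 28 (35.7%), against 3781 of 27025 symbols in the whole table (14.0%). The members were listed as genes of the NRF2 programme, so a share above that of the whole table is no result about stiffness. Among genes that rose in the high gel, as defined below, it was in 5 of 10 (50.0%), and among the others in 5 of 18 (27.8%). The difference between risen and other members was not tested. The stretches below are shown because they hold the match in the 5 genes that rose and have one, with G6pdx and Me1 as examples of NADPH-making genes. Each is printed 5′ to 3′ on the strand of its gene, with the match in capitals.
Gclm: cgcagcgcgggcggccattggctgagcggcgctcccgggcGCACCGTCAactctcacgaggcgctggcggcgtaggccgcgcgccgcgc
Txnrd1: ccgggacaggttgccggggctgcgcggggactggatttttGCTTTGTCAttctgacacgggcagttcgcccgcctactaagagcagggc
Srxn1: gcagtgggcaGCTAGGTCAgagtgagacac
Prdx1: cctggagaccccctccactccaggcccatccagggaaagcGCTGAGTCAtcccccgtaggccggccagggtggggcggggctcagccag
Sod1: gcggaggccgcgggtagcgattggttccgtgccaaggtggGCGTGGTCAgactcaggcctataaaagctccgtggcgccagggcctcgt
G6pdx: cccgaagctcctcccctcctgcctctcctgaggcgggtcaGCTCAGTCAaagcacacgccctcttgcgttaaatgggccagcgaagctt
Me1: gatgccgccgTGACTCAGCgcttctcgcgg

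Positions are counted from -1, the base before the start, and 1, the first transcribed base. The Gclm match lay at -134 to -126 (stretch chr3:122245383-122245471, plus strand) and that of Txnrd1 at -92 to -84 (chr10:82859074-82859162, plus strand). For Prdx1 it was at -133 to -125 (chr4:116685426-116685514, plus strand) and for Sod1 at -56 to -48 (chr16:90220666-90220754, plus strand). Srxn1 had its match just after the start, at 29 to 37 (chr2:152105542-152105571, plus strand). For G6pdx it lay at -57 to -49 (chrX:74428889-74428977, minus strand) and for Me1 across the start, at -6 to 3 (chr9:86695901-86695930, minus strand). In Prdx1 and Me1 the match overlaps TGACTCA, the AP-1 motif, and in the other 5 it does not. Nfe2l2, Pgd and Mgst1 also held a match. A match describes the letters only and is not a binding site, and the distal elements known for several of these genes lie outside this window.

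Across stiffness, 11 of the 13 genes that rose belonged to the glutathione and thioredoxin groups, and the other two were Cat and Sod1. Srxn1, Prdx5, Txnrd1, Gsr and Gclm were each higher in the high than in the low gel by 0.51 to 0.66 on the log2 scale. The statement depends on how the replicate number is treated. Fold changes below are log2 values ± SE from edgeR's quasi-likelihood test with the replicate number as a block. "Rose" and "fell" mean a Benjamini-Hochberg adjusted p under 0.05 over all tested genes in that fit. There, 13 of 31 genes rose and 0 fell in high against low, 41.9% of the members. Over all tested genes 15.5% passed, 6.72% higher and 8.73% lower. The median log2 fold change was 0.38 over the 31 genes and 0 over all genes.

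Without the replicate block, 0 of the 31 genes passed for high against low in edgeR, where 0.091% of all genes did. Gsr alone of the 31 had an unadjusted p under 0.05 (log2 fold change 0.56 ± 0.15, adjusted p = 0.325), as did 934 of all 12094 genes. DESeq2 without the block called 1 of the 31 and 333 of the 12094. The edgeR fold changes without the block had a median of 0.33, and 27 of 31 were above 0, where 50.6% of all genes were. The SE of the 13 genes ran from 0.15 to 0.78 without the block, and from 0.09 to 0.16 with it. Leaving out 1 library at a time in the fit with the block left 5 to 12 of the 31 genes called. The count was 5 without low replicate 3 or high replicate 2, and 7 without middle replicate 3, high replicate 1 or high replicate 3. Calls over all genes ran from 605 of 12321, without high replicate 2, to 2469 of 12267, without low replicate 1. They were 808 of 12290 without low replicate 3 and 2260 of 12267 without high replicate 1. Gclm, Gsr, Txnrd1 and Srxn1 passed in 9 of these 9 fits, Prdx5 in 8 and Sod1 in 7. Slc7a11, Esd, Prdx1 and Cat passed in 4, Txn1 and Prdx6 in 3, and Gclc in 1.

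**Figure D1:**
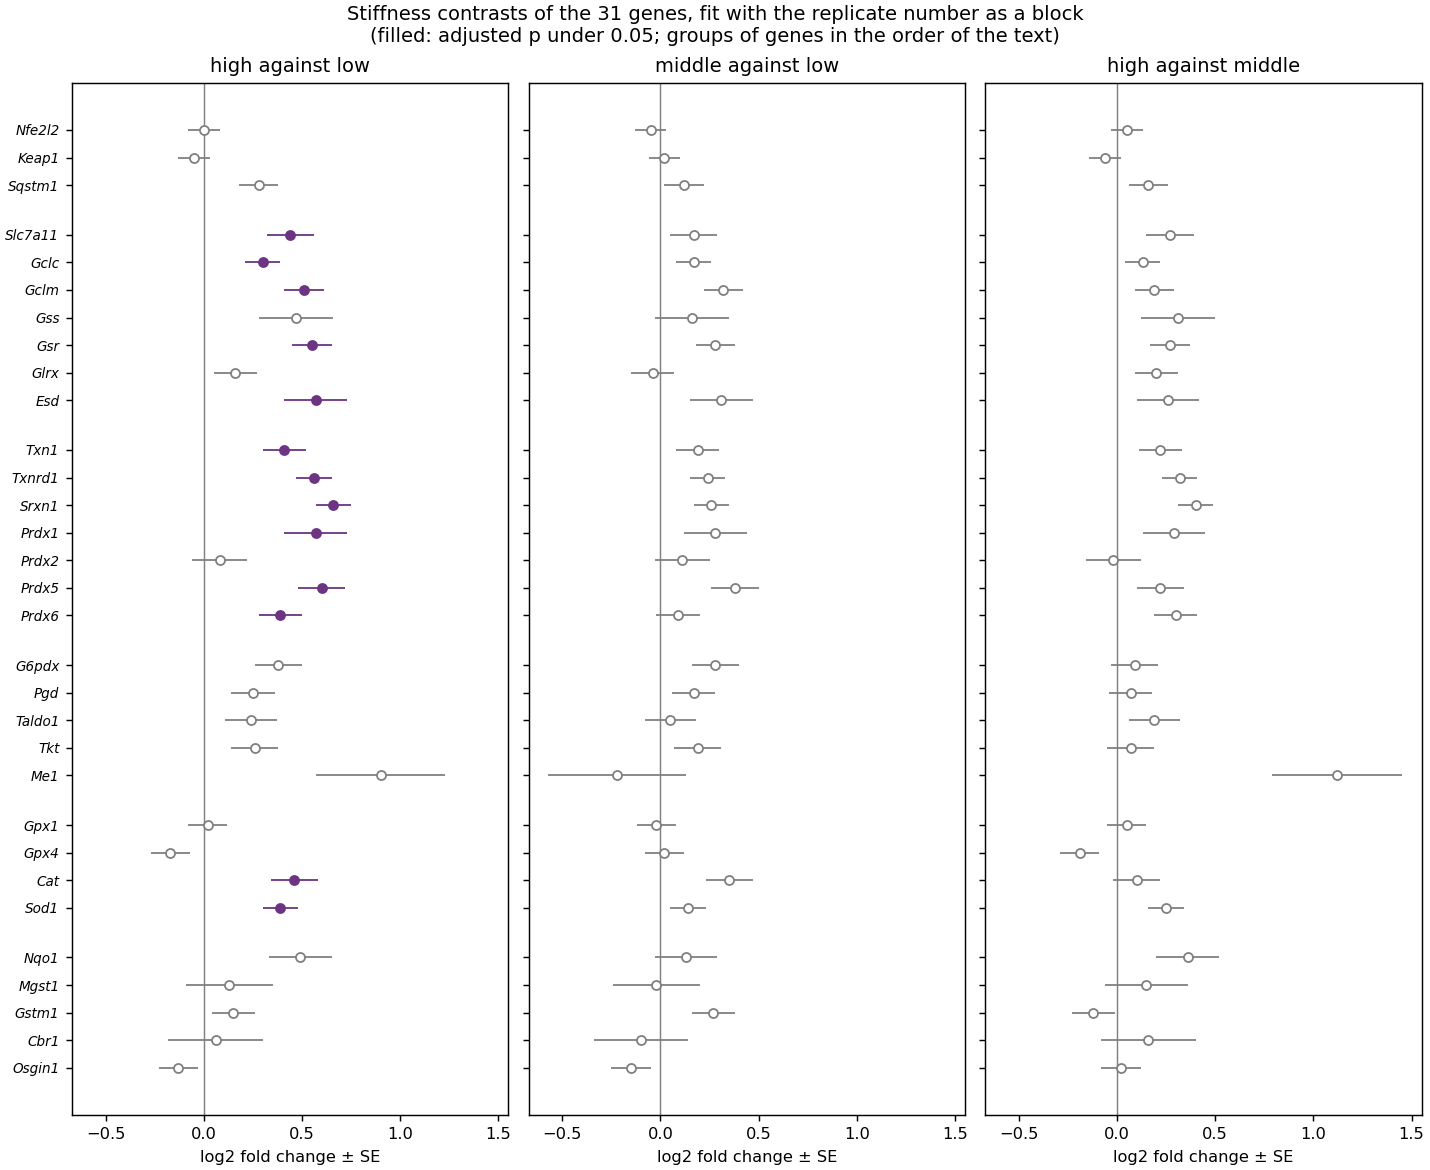
Log2 fold change ± SE of the 31 genes for the 3 stiffness contrasts, from the fit with the replicate number as a block (filled points: adjusted p under 0.05). The 13 filled points all lie in high against low and right of 0, 11 of them in the glutathione and thioredoxin groups.

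The replicate numbers matter because the 3 libraries numbered 1 stood apart. The 31 genes together took 2.27%, 3.00% and 3.35% of the counts of replicate 1 in the low, middle and high gel. They took 1.45%, 1.46% and 1.73% in replicate 2, and 1.36%, 1.49% and 1.57% in replicate 3. Total counts were 13.2 M to 14.1 M in replicate 1 and 14.7 M to 19.5 M in the others. The summed level of 10 neutrophil markers (S100a8, S100a9, Csf3r, Ngp and others) was 2900 to 3370 CPM (counts scaled to a common library size) in replicate 1 and 12000 to 21700 in replicates 2 and 3. For 10 macrophage markers it was 7090 to 8310 CPM in replicate 1 and 4600 to 7260 in the others, with Gpnmb averaging 3120 CPM and Csf1r 1120. Gpnmb weighs most in that sum, and its log2 fold change in replicate 1 against the others was 1.30. Values of the opposite sign were found for C1qa (-2.79), C1qb (-1.97), C1qc (-1.93), Mertk (-0.93), Csf1r (-0.90) and Fcgr1 (-0.42). Mrc1 (0.53) and Adgre1 (0.25) had the sign of Gpnmb, and Cd68 was at 0.01. All 20 of these markers were tested and none was at 0 in all libraries. The labelled cell type is thus present in RNA, alongside macrophage marker RNA. In bulk RNA, fewer cells of a type and less RNA per cell cannot be told apart. In high against low, 0 of the 10 neutrophil markers rose and 3 fell, and 2 of the 10 macrophage markers rose and 5 fell, where 6.72% of all genes rose and 8.73% fell. The neutrophil sums were 2900 to 21700 CPM in the low and 3330 to 12100 in the high gel, and the macrophage sums 7210 to 8310 and 4600 to 7480. The part of either in the results below was not tested.

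None of the 3 regulators passed in any stiffness contrast. Nfe2l2 itself read 563, 580 and 586 CPM (normalised by TMM) in low replicates 1 to 3, 545, 557 and 567 in middle, and 576, 582 and 574 in high. The low group overlaps both others, and every middle library lies below every high one, within a band of 545 to 586 CPM. Its log2 fold change for high against low was 0.00 ± 0.08 and that of Keap1, the NRF2 repressor, -0.05 ± 0.08. Sqstm1 encodes p62, an autophagy receptor that binds KEAP1 and is itself an NRF2 target. It read 6340, 2380 and 2160 CPM in low, 6850, 2450 and 2470 in middle, and 7850, 3010 and 2450 in high. Its replicate 1 libraries were far above the others in every gel, and the stiffness difference was 0.28 ± 0.10 (edgeR adjusted p = 0.0806).

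Of 7 genes of glutathione synthesis and recycling, 5 rose in the high gel, with a median log2 fold change of 0.47 for the group. Gclm, the modifier subunit of the enzyme that commits glutamate and cysteine to glutathione, read 521, 248 and 246 CPM in low, 788, 283 and 281 in middle, and 914, 326 and 312 in high. Within each replicate number the level climbed from low to middle to high. The rise was 0.51 ± 0.10 (edgeR adjusted p = 0.00773). Gclc, the catalytic subunit of the same enzyme, read 294, 179 and 195 CPM in low, 351, 220 and 190 in middle, and 397, 222 and 218 in high. Its rise was smaller, at 0.30 ± 0.09 (edgeR adjusted p = 0.0432), and replicate 3 did not climb between low and middle.

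Gsr, which returns oxidised glutathione to its reduced form with NADPH, was the only one of the 13 whose low and high libraries did not overlap at all. It read 1000, 1170 and 1110 CPM in low, 1460, 1240 and 1310 in middle, and 1680, 1520 and 1640 in high. The lowest high library stood above the highest low library, and the rise was 0.55 ± 0.10 (edgeR adjusted p = 0.00539). Over all genes, 5.9% had every high library above every low one and 6.76% every one below. Among the 31, Gss, Pgd and Nqo1 did so too and 0 showed the reverse.

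Slc7a11 is the cystine importer that feeds glutathione synthesis. It read 2590, 1420 and 1430 CPM in low, 3050, 1620 and 1510 in middle, and 2830, 2160 and 2120 in high. Replicates 2 and 3 were higher in high than in middle or low, and replicate 1 was highest in middle. The rise was 0.44 ± 0.12 (edgeR adjusted p = 0.0308). Esd, an esterase of the glutathione-dependent formaldehyde pathway, read 686, 337 and 278 CPM in low and 1390, 436 and 354 in high, a rise of 0.57 ± 0.16 (edgeR adjusted p = 0.0436).

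Gss, the second enzyme of glutathione synthesis, did not pass (0.47 ± 0.19, edgeR adjusted p = 0.146). Its levels were close to each other in low, at 46.0, 45.7 and 45.0 CPM, and spread in high, at 100 CPM in replicate 1 against 53.6 and 48.4. Glrx, the glutaredoxin that removes glutathione from proteins, lay between 73 and 105 CPM over all libraries and had a log2 fold change of 0.16.

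**Figure D2:**
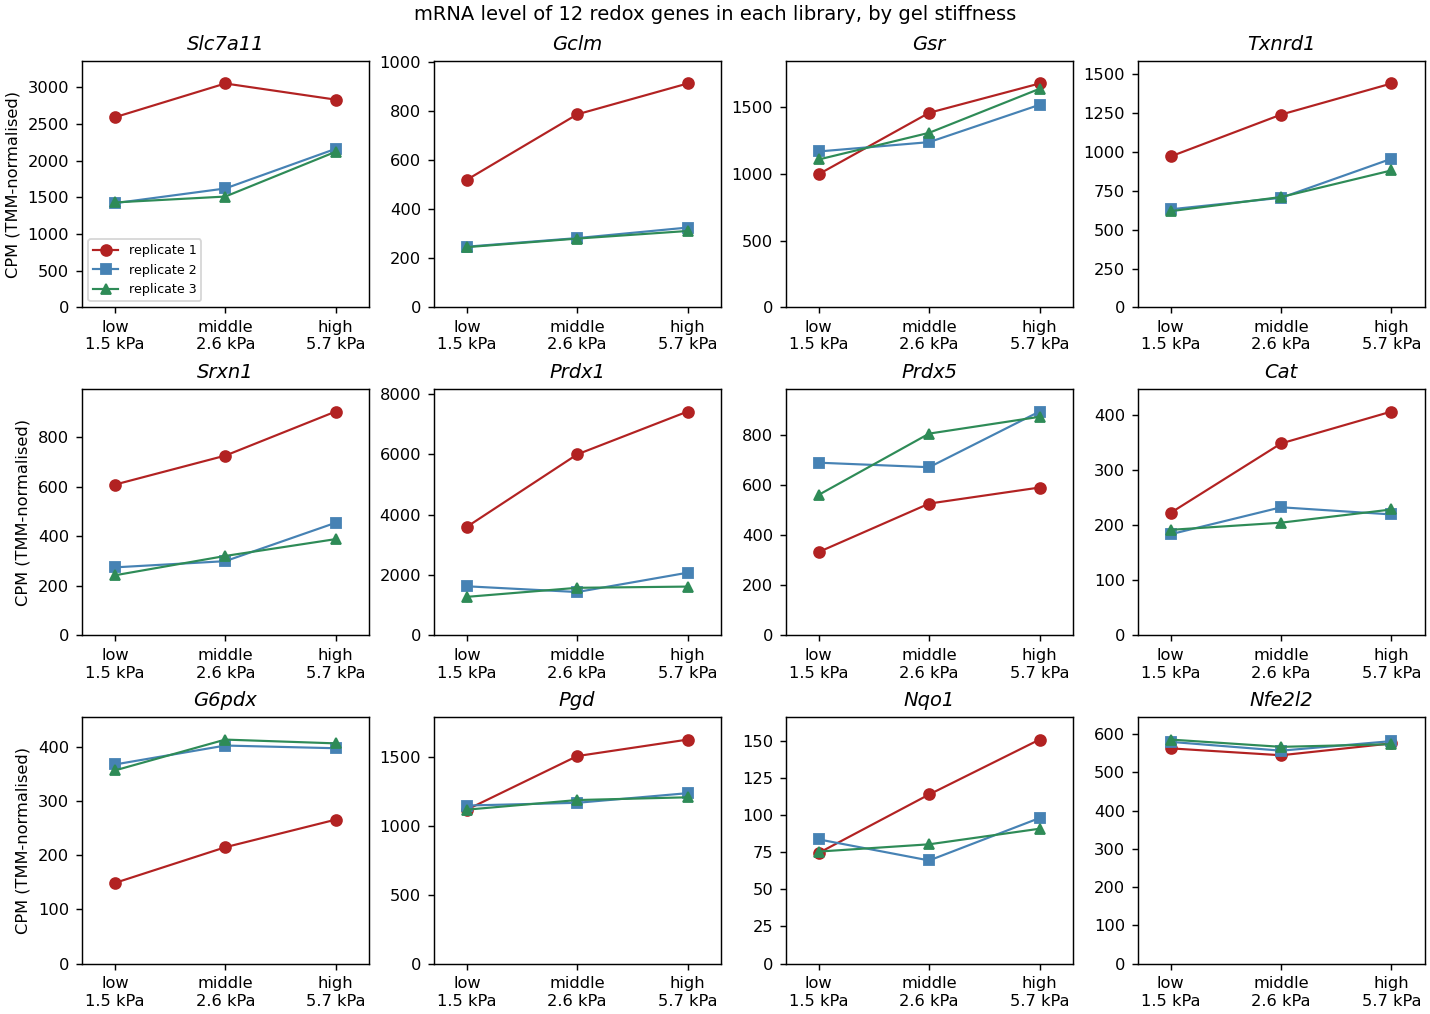
TMM-normalised CPM of 12 of the genes in each of the 9 libraries against gel stiffness, with lines joining libraries of the same replicate number. Gclm, Gsr, Txnrd1 and Srxn1 climb with stiffness in all 3 lines, Prdx1 and Gclm sit far higher in replicate 1, and Nfe2l2 stays between 545 and 586 CPM.

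In the thioredoxin and peroxiredoxin system 6 of 7 genes rose, with a group median of 0.56. Srxn1, the sulfiredoxin that repairs over-oxidised peroxiredoxins, had the largest rise of the 13. It read 609, 275 and 243 CPM in low, 726, 300 and 321 in middle, and 904, 455 and 389 in high. The climb was present in every replicate number, with high minus low differences of 0.57, 0.73 and 0.68 in log2 CPM for replicates 1 to 3. The fitted rise was 0.66 ± 0.09 (edgeR adjusted p = 0.00102). Txnrd1, the cytosolic thioredoxin reductase, read 971, 631 and 619 CPM in low, 1240, 705 and 710 in middle, and 1440, 956 and 881 in high. Its 3 differences were as close, at 0.57, 0.60 and 0.51, and the rise was 0.56 ± 0.09 (edgeR adjusted p = 0.00199).

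Txn1, the thioredoxin that Txnrd1 reduces, read 442, 324 and 293 CPM in low and 703, 402 and 348 in high, with a rise of 0.41 ± 0.11 (edgeR adjusted p = 0.0324). Prdx1, an abundant cytosolic peroxiredoxin, showed the widest gap between replicate numbers of the 31 genes. It read 3600, 1630 and 1280 CPM in low, 6000, 1440 and 1580 in middle, and 7420, 2080 and 1620 in high. The high library of replicate 3 was no higher than the low library of replicate 2. The rise within replicate numbers was 0.57 ± 0.16 (edgeR adjusted p = 0.0392).

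Prdx5, a peroxiredoxin of mitochondria, peroxisomes and cytosol, had the opposite replicate pattern. It read 333, 689 and 561 CPM in low, 526, 671 and 805 in middle, and 590, 893 and 872 in high. Replicate 1 was the lowest library of every gel, and the rise was 0.60 ± 0.12 (edgeR adjusted p = 0.00791). Prdx6, which also has phospholipase activity, read 428, 238 and 208 CPM in low and 656, 286 and 254 in high, a rise of 0.39 ± 0.11 (edgeR adjusted p = 0.0297). Prdx2, the peroxiredoxin best known from red cells, was low at 28.2 to 42.0 CPM and did not pass (0.08). Several of these genes have processed pseudogenes (Txn1, Prdx1, Prdx6, Gpx4) or close relatives (Gstm1). Reads shared among copies could be lost or misplaced in the counting, so the levels of these genes are uncertain to that extent.

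None of the 5 pentose phosphate and NADPH genes passed, although all 5 had positive fold changes, with a median of 0.26. G6pdx, whose enzyme opens the pathway and makes its first NADPH, read 149, 368 and 357 CPM in low, 215, 403 and 414 in middle, and 266, 398 and 407 in high. Replicate 1 held less of it than the other replicates in every gel, and the difference was 0.38 ± 0.12 (edgeR adjusted p = 0.0613). Pgd, which makes the second NADPH, read 1120, 1150 and 1120 CPM in low, 1510, 1170 and 1190 in middle, and 1630, 1240 and 1210 in high. The step was wide in replicate 1 and small in the others, at 0.54, 0.10 and 0.11 in log2 CPM, and the fitted value was 0.25 (edgeR adjusted p = 0.14).

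Taldo1 and Tkt run the non-oxidative branch that returns pentoses to glycolysis. Their fitted differences were 0.24 (edgeR adjusted p = 0.243) and 0.26 (0.159). Me1, cytosolic malic enzyme and another NADPH source, had the largest fold change of the 31 genes, 0.90 ± 0.33, which did not pass (edgeR adjusted p = 0.0864). It was the rarest of the 31 per length, with 17 to 115 counts in a library, at 2.11, 3.09 and 1.93 CPM in low and 8.18, 3.56 and 3.04 in high.

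Of 4 genes that remove peroxide and superoxide, Cat and Sod1 rose and the glutathione peroxidases did not. Cat, catalase, read 223, 184 and 192 CPM in low, 349, 233 and 205 in middle, and 407, 220 and 229 in high, a rise of 0.46 ± 0.12 (edgeR adjusted p = 0.027). Sod1, the copper-zinc superoxide dismutase, read 98.5, 43.7 and 40.8 CPM in low and 138, 57.1 and 49.7 in high, a rise of 0.39 ± 0.09 (edgeR adjusted p = 0.0153). Both were higher in high than in low within each replicate number. Gpx1, the cytosolic glutathione peroxidase, differed by 0.02, and Gpx4, which reduces lipid peroxides, by -0.17 ± 0.10.

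None of the 5 conjugation and other NRF2 target genes passed. Nqo1, a quinone reductase widely used as an NRF2 readout, read 74.6, 83.7 and 75.5 CPM in low, 114, 69.5 and 80.4 in middle, and 151, 98.1 and 90.9 in high. Its high libraries were all above its low ones, yet the difference was 0.49 ± 0.16 (edgeR adjusted p = 0.0721). Mgst1 and Gstm1, which are glutathione transferases, had log2 fold changes of 0.13 and 0.15. Cbr1, a carbonyl reductase at 4.90 to 8.46 CPM, had 0.06, and Osgin1, a growth inhibitor induced by oxidative stress, had -0.13.

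For middle against low, 0 of the 31 genes passed with the block, where 1.84% of all genes did, and 0 passed without it, where 0% did. With the block, 8 of the 31 had an unadjusted p under 0.05, each of them higher in middle. These were Gclm, Gsr, Txnrd1, Srxn1, Prdx5, G6pdx, Cat and Gstm1, at 0.24 to 0.38 in log2 fold change. Of all 12094 tested genes, 1768 had an unadjusted p under 0.05 in that fit, 760 of them higher in middle. The median over the 31 was 0.16. For high against middle, 0 passed with the block, where 0.0165% of all genes did, and 0 without it, where again 0% did. The median was 0.19, and Srxn1 (0.40 ± 0.09) and Txnrd1 (0.32 ± 0.09) had the smallest unadjusted p. With the block, leaving out low replicate 1 gave 4 of the 31 higher in high than in middle, leaving out high replicate 1 gave 2, and each of the other 7 gave 0. Over all genes, in either direction, 254 of 12267 passed without low replicate 1 and 301 of 12267 without high replicate 1. In the other 7 fits 0 to 11 did. Without the block, 0 of the 31 had an unadjusted p under 0.05 in either contrast. Of all genes, 318 did for middle against low and 179 for high against middle.

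A climb from low to middle to high in all 3 replicate numbers was seen in 5 of the 31 genes: Gclm, Gsr, Txnrd1, Srxn1 and Pgd. Of all tested genes, 5.1% had such a climb. Another 11 of the 31 climbed in 2 replicate numbers, 12 in 1 and 3 in none, against 14.3%, 27.8% and 52.8% of all genes.

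In replicates 2 and 3 alone, with the block, 13 of the 31 genes were higher in the high than in the low gel at adjusted p under 0.05 and 2 were lower. Of 12214 genes tested there, 11.9% were higher and 14.1% lower. Of these 13, 12 were among the 13 called over all libraries. Gclc was not called there (0.23, edgeR adjusted p = 0.0741), and Sqstm1 was (0.26 ± 0.09, edgeR adjusted p = 0.0421). The 2 lower genes were Gpx4 (-0.28 ± 0.10, edgeR adjusted p = 0.0448) and Osgin1 (-0.28 ± 0.08, 0.0219). In these 6 libraries high exceeded middle for 6 of the 31 genes, where 3.68% of all genes were higher and 3.68% lower. The 6 were Me1 (1.12 ± 0.31), Slc7a11 (0.45 ± 0.08), Srxn1 (0.44 ± 0.09), Txnrd1 (0.38 ± 0.08), Nqo1 (0.34 ± 0.10) and Gsr (0.31 ± 0.08), with edgeR adjusted p of 0.00339 to 0.0441. Gstm1 was lower (-0.28 ± 0.08, edgeR adjusted p = 0.0393).

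More of the 31 genes passed between replicate numbers than between the high and low gels, at 71% against 41.9%. That held over all genes too, at 65.4% against 15.5%. In replicate 1 against replicates 2 and 3, with stiffness in the fit, 19 of 31 were higher and 3 lower, against 32.9% and 32.5% of all genes. Prdx1 (1.78 ± 0.13), Esd (1.60 ± 0.13), Sqstm1 (1.50 ± 0.08), Gclm (1.36 ± 0.09), Sod1 (1.28 ± 0.08) and Gstm1 (1.28 ± 0.09) differed by the most. For Gclm that is a gap of 521 against 248 and 246 CPM in the low gel alone. Nfe2l2 did not pass here either (-0.03 ± 0.07). The 3 lower genes were G6pdx (-0.92 ± 0.11), Prdx5 (-0.65 ± 0.11) and Gpx1 (-0.50 ± 0.09), an NADPH-making enzyme and a pair of peroxidases. The neutrophil marker sum given above was lower in every replicate 1 library. The macrophage sums overlapped, at 7090 to 8310 CPM in replicate 1 and 4600 to 7260 in the others. The part of either in this split was not tested.

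**Figure D3:**
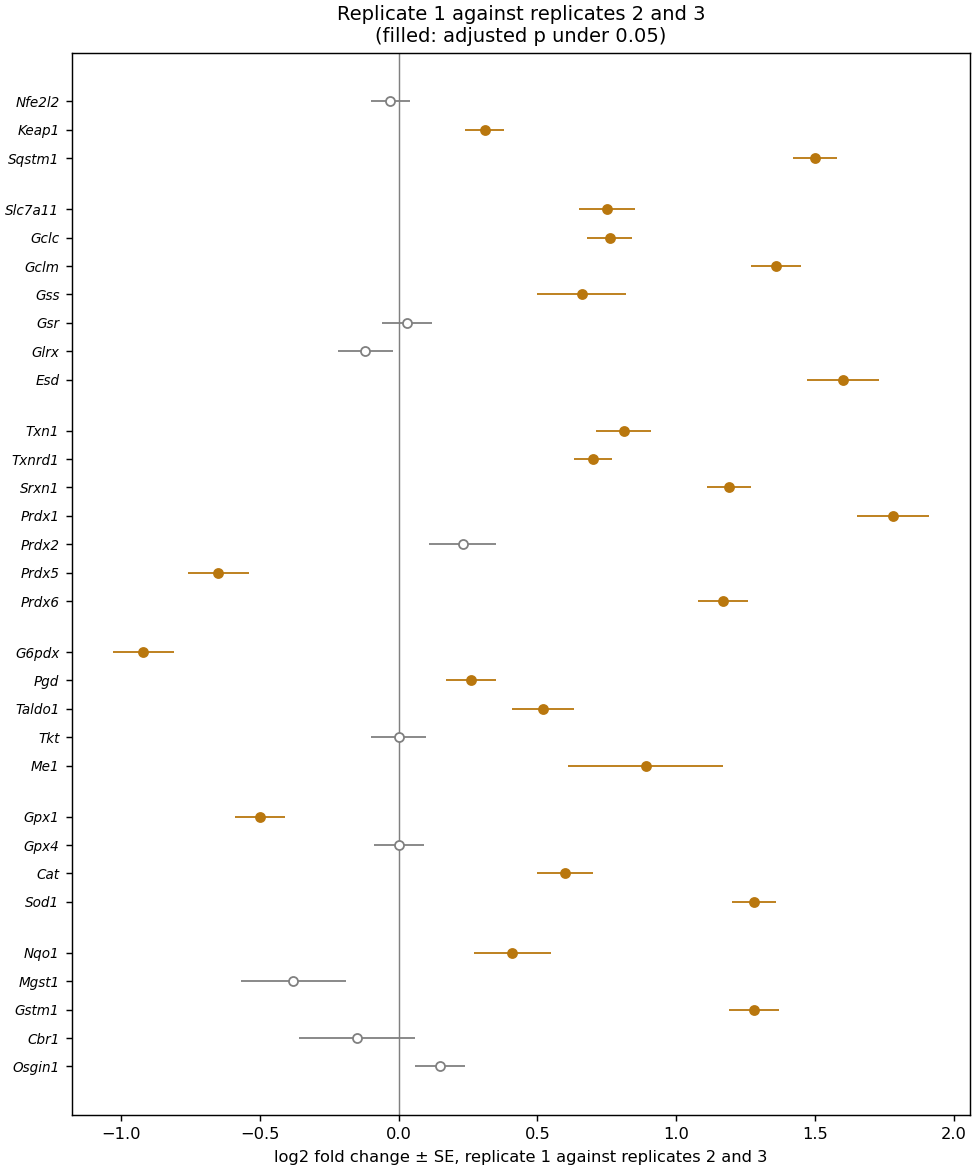
Log2 fold change ± SE of the 31 genes in replicate 1 against replicates 2 and 3, from the fit with stiffness and replicate number (filled points: adjusted p under 0.05). Of the 31, 19 filled points lie right of 0, up to Prdx1 at 1.78, and 3 lie left of it, down to G6pdx at -0.92.

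The stiffness difference also varied with the replicate number. High minus low was positive in 31 of 31 genes in replicate 1, in 24 in replicate 2 and in 22 in replicate 3, where 49.4%, 49.8% and 49.4% of all genes were positive. The median difference over the 31 was 0.58, 0.23 and 0.18 in log2 CPM. By role, the glutathione genes had medians of 0.74, 0.37 and 0.34 in replicates 1 to 3, and the thioredoxin genes 0.62, 0.35 and 0.34. For the pentose phosphate genes the medians were 0.66, 0.11 and 0.11, for the peroxide and superoxide genes 0.40, 0.05 and 0.09, and for the conjugation genes 0.77, -0.07 and -0.09. The medians of the first 4 of these groups were above 0 in each replicate number, and that of the conjugation group in replicate 1 alone.

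The difference between replicate 1 and the others in the high against low effect was tested as an interaction in edgeR, where replicate 1 has 1 library a group and is assumed to vary like the rest. It passed for 11 of the 31 genes, against 8.36% of all genes. In 10 of the 11 the effect was larger in replicate 1: Mgst1 (0.99 ± 0.22), Gss (0.96 ± 0.15), Nqo1 (0.77 ± 0.16), G6pdx (0.68 ± 0.12), Cat (0.61 ± 0.14), Tkt (0.59 ± 0.14), Glrx (0.54 ± 0.14), Gstm1 (0.46 ± 0.12), Gclm (0.44 ± 0.12) and Pgd (0.44 ± 0.12). Slc7a11 was the exception, with a smaller effect in replicate 1 (-0.46 ± 0.13). For Txnrd1 (0.02 ± 0.12) and Srxn1 (-0.13 ± 0.16) the difference did not pass. This count ran from 5, without low replicate 2, to 19, without high replicate 2, and was 6 without middle replicate 2 or middle replicate 3. Calls over all genes moved with it, from 514 of 12289 without low replicate 2 to 1603 of 12321 without high replicate 2. They were 602 of 12296 without middle replicate 2 and 678 of 12335 without middle replicate 3.

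**Figure D4:**
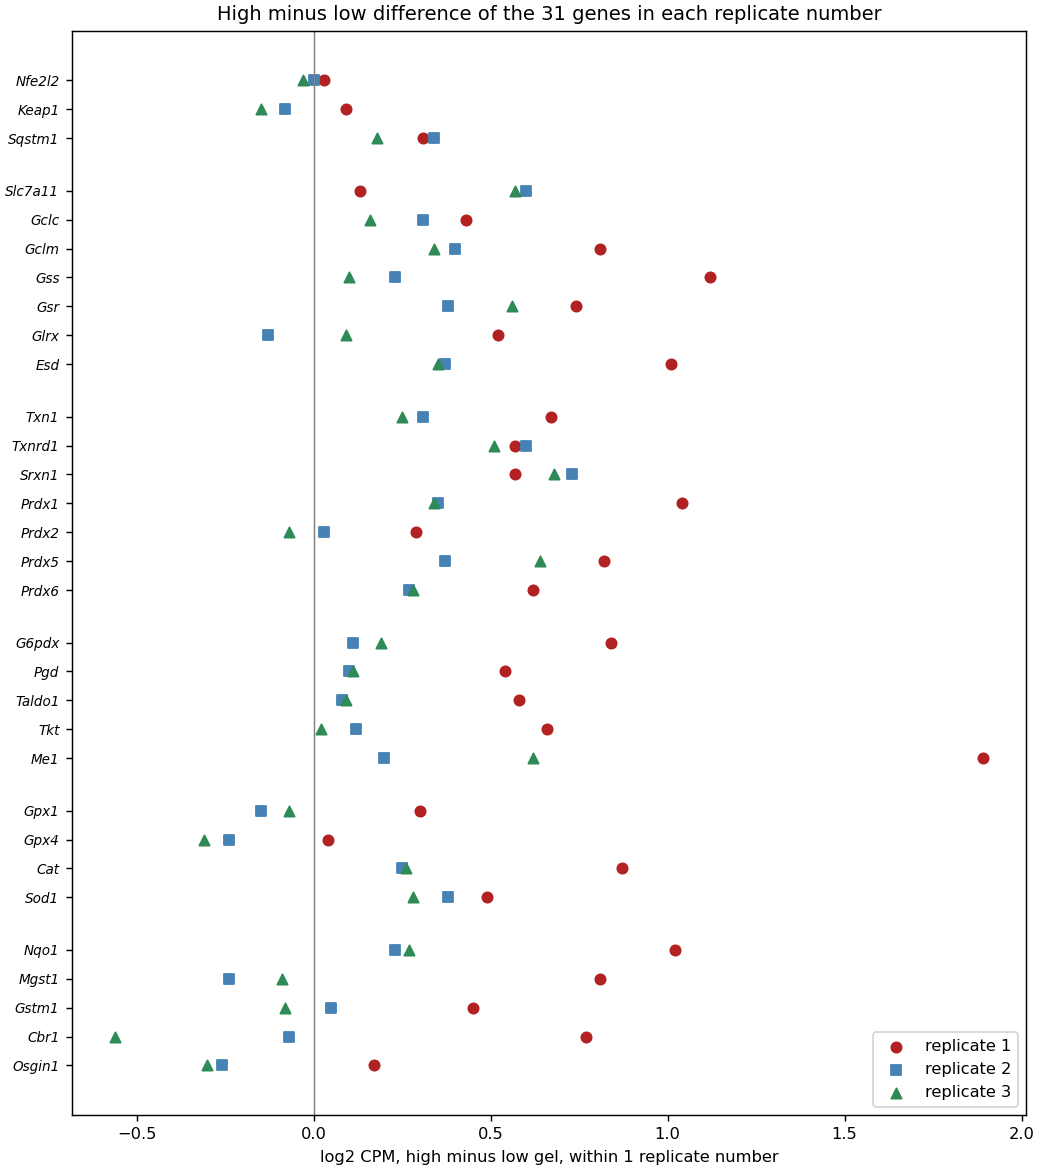
High minus low difference in log2 CPM of the 31 genes within each replicate number, grouped by role in the order of the text. Replicate 1 is right of 0 for all 31 genes, and the 3 numbers lie close together for Txnrd1 (0.57, 0.60 and 0.51) and Srxn1 (0.57, 0.73 and 0.68).

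Levels between genes can be compared only per length. In mean CPM per kilobase of exon over the 9 libraries, Prdx1 was the most abundant of the 31 at 2090, followed by Sqstm1 at 703, Taldo1 at 639, Pgd at 549, Prdx5 at 519 and Gsr at 505. Nfe2l2 stood at 228 and Keap1 at 14.6. The rarest were Me1 at 0.873 and Cbr1 at 6.07, which had 65 to 141 counts a library.

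Further genes of these pathways were taken from lists. Of 23 tested NRF2 targets outside the 31, 9 rose and 0 fell in high against low, with a median log2 fold change of 0.41. Over all genes 6.72% rose and 8.73% fell. Abcc1, an exporter of glutathione conjugates, read 491, 345 and 336 CPM in low, 678, 405 and 400 in middle, and 817, 602 and 558 in high (0.76 ± 0.09). Abcc4, an exporter of cyclic nucleotides and organic anions, read 28.3, 34.5 and 40.2 CPM in low, 48.8, 51.0 and 51.0 in middle, and 59.4, 68.2 and 66.0 in high (0.92 ± 0.10). For both, every high library was above every low one. Abcc4 also rose in middle against low (0.56 ± 0.10, edgeR adjusted p = 0.0181). The aldo-keto reductase Akr1b8 (1.47 ± 0.29) and the glutathione transferase Gsta3 (1.28 ± 0.24) rose from low levels of at most 6.79 CPM in the low gel. Hmox1, also in this list, did not pass (0.38 ± 0.15, edgeR adjusted p = 0.128). It read 1060, 791 and 740 CPM in low, 1580, 750 and 765 in middle, and 2060, 826 and 813 in high.

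In each of the other lists 1 to 3 genes passed, where 15.5% of all genes did, so these counts say little about the lists and the genes are given for their own values. Of 11 tested NRF2 regulators and partners 1 rose, Mafg, a small MAF partner (0.29 ± 0.08). Among 21 other glutathione genes 1 rose, Slc3a2, the heavy chain that carries Slc7a11 to the membrane (0.41 ± 0.09). In that list 2 fell, the secreted peroxidase Gpx3 (-0.84 ± 0.15) and the transferase Gstt2 (-0.74 ± 0.19). Among 13 other thioredoxin system genes Txnl1 rose (0.40 ± 0.08) and Msra, a methionine sulfoxide reductase, fell (-0.53 ± 0.08). Nadk, the kinase that makes NADP from NAD, was the 1 of 19 other pentose phosphate and NADPH genes that rose. It read 392, 598 and 567 CPM in low, 549, 722 and 800 in middle, and 572, 1050 and 967 in high (0.71 ± 0.10). Of 6 further superoxide and peroxide genes 2 rose, Sod2 and Selenok (0.28 ± 0.08). Sod2, the mitochondrial superoxide dismutase and also an NF-kB target, read 668, 482 and 487 CPM in low, 1070, 822 and 846 in middle, and 1180, 1280 and 1310 in high. Its rise was 1.22 ± 0.12 in high and 0.75 ± 0.12 in middle (edgeR adjusted p = 0.000161 and 0.0121), against 0.39 ± 0.09 for Sod1 in high.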

How the data were processed

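Each deposited file holds raw counts per gene for 1 library, the authors' FPKM and a deposited exonic gene size in bases, another unit, per the file headers. The FPKM equalled values recomputed from counts and sizes in 100% of entries within 0.0051 and was not used further. The submitters' processing notes name HTSeq 0.6.1, HISAT2 2.0.1 and cutadapt 1.9.1, together with DESeq2, and build GRCm39, with no order or role. Its strand setting and the annotation release are not stated there. Libraries were stranded and poly(A)-selected, per the labels' protocols.

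Counts were fitted in edgeR 4.0.16 (R 4.3.3) over all 12094 genes kept by filterByExpr, with TMM scaling, robust quasi-likelihood tests, two-sided, and Benjamini-Hochberg adjustment at 0.05. The scripts were tested on simulated data. The design fixed as main has the stiffness group only, and the replicate number enters as a block in the alternative used for the fold changes. After group means were removed, same-numbered libraries of different groups correlated at 0.595 to 0.856. Pairs of replicates 2 and 3 correlated at 0.552 to 0.698 and pairs of replicate 1 with the others at -0.777 to -0.65, so most of this pairing sets replicate 1 apart. The biological coefficient of variation was 0.337 without and 0.115 with the block. The SE is the size of the fold change over the root of its F statistic. CPM values use the TMM library sizes, and differences within a replicate number use log2 CPM with a prior count of 2. Alternatives were DESeq2 1.42.0, its size factors, no filter, and each library left out. All 31 members are named, and from each pathway list up to 4 genes called in a stiffness contrast. Hmox1, which was not called, was added to these. Members, lists and tests were chosen with earlier results of these data known. Promoter sequences are from RefSeq (GRCm38.p6), another build than that of the counts, and serve for sequence only. Plots used Python 3.11.15 with matplotlib 3.10.9.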

Additional observations from a re-analysis of the deposited data

Results flagged for a closer look

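The high minus low difference in replicate 1 differed from that in replicates 2 and 3 for 11 of the 31 genes, by an edgeR interaction test with Benjamini-Hochberg adjustment over all genes, of which 8.36% passed. The count among the 31 ran from 5 to 19 when 1 library was left out, where 514 to 1603 of all genes passed. The replicate 1 difference was larger, in log2 units, by 0.96 for Gss (adjusted p = 0.00227), 0.68 for G6pdx (0.00444), 0.77 for Nqo1 (0.0117), 0.61 for Cat (0.0167), 0.99 for Mgst1 (0.0181) and 0.59 for Tkt (0.0209). It was also larger by 0.44 for Gclm (adjusted p = 0.0366), 0.54 for Glrx (0.0366), 0.46 for Gstm1 (0.0428) and 0.44 for Pgd (0.0463). For Slc7a11 the value was -0.46 (adjusted p = 0.0463), the smaller difference being in replicate 1. Gss, G6pdx, Cat, Nqo1 and Mgst1 passed in 7 of the 7 fits that left out 1 library and could be made, Tkt in 6, Glrx in 4, Gclm, Pgd and Gstm1 in 3, and Slc7a11 in 2.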

How the results depend on the processing

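With all 9 libraries, the edgeR calls for high against low were made only with the replicate block. For high against low, 0 of the 31 genes passed without it (11 of all genes), also with other size factors, no filter, or any 1 library left out, and 1 passed in DESeq2 (333 of all genes). With the block 13 passed (1869 of all genes), also with DESeq2's size factors (1905 of all genes). Without a filter, an alternative added after the data were seen, 12 passed (1859 of 17236 genes). DESeq2 gave 17 (1901 of all genes), and a block of 2 levels, replicate 1 or not, gave 15 (2276 of all genes). Replicates 2 and 3 alone gave 15 with the block (3183 of 12214 genes) and 12 without (3207 of 12214). The 4 further calls in DESeq2 with the block were Sqstm1, Gss, G6pdx and Nqo1. Leaving out 1 library gave 5 to 12 with the block (605 to 2469 of all genes). For middle against low, replicates 2 and 3 alone without the block gave 1, Gstm1 (0.27), where 784 of 12214 genes passed. Every other alternative run gave 0 (0 to 825 of all genes). For high against middle, replicates 2 and 3 alone gave 6 without the block (840 of all genes) and 7 with it (900 of all genes). DESeq2 with the block gave 2, Srxn1 and Txnrd1 (108 of all genes). Leaving out 1 library with the block gave 0 to 4 (0 to 301 of all genes). Replicate 1 against the others gave 18 to 24 calls (6766 to 7953 of all genes). The interaction gave 19 calls without a filter (1556 of 17236 genes). With 1 library left out it gave 5 to 19 (514 to 1603 of all genes), and it could not be fitted without low or high replicate 1.

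Signs changed in genes that did not pass in the fit with all libraries. For high against low in replicates 2 and 3 alone, with and without the block, the log2 values were -0.01 for Nfe2l2 and Gstm1, -0.02 for Glrx and Prdx2, -0.12 for Gpx1, -0.18 for Mgst1, and -0.30 and -0.29 for Cbr1. Gpx1 was -0.01 without the block and -0.00035 there without a filter. With 1 library left out, high against low with the block ran from -0.01 to 0.02 for Nfe2l2, -0.10 to 0.00052 for Keap1, -0.01 to 0.22 for Prdx2, -0.08 to 0.13 for Gpx1, -0.14 to 0.40 for Mgst1, -0.01 to 0.25 for Gstm1 and -0.27 to 0.32 for Cbr1. Replicate 1 against the others ran from -0.04 to 0.15 for Gsr, -0.26 to 0.02 for Glrx, -0.12 to 0.17 for Tkt, -0.10 to 0.07 for Gpx4 and -0.51 to 0.07 for Cbr1. There Glrx and Cbr1 each passed in 1 of 9 fits. The interaction ran from -0.10 to 0.22 for Sqstm1, -0.04 to 0.10 for Txnrd1 and -0.25 to 0.0046 for Srxn1. The cause was not tested. Depth was lowest for Me1, at 17 to 115 counts a library, and Cbr1, at 65 to 141.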

Other observations

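The pathway lists outside the 31 genes also differed between replicate numbers. In replicate 1 against replicates 2 and 3, 14 of 23 other NRF2 targets were higher and 1 was lower in edgeR with the block, among them Akr1b8 (2.38 ± 0.23) and Gsta3 (1.86 ± 0.19). Abcc4, which rose with stiffness, was the lower one (-0.21 ± 0.08, adjusted p = 0.0498). Of 19 other pentose phosphate and NADPH genes, 5 were higher and 11 lower in replicate 1, including Nadk (-0.62 ± 0.09). Of 21 other glutathione genes, 9 were higher, including Slc3a2 (0.89 ± 0.08), and 3 lower, including Gpx3 (-1.96 ± 0.14). Gpx3 read 7.39, 5.55 and 5.97 CPM in the low, middle and high libraries of replicate 1, and 16.8 to 37.3 CPM in the other 6. Over all tested genes 32.9% were higher and 32.5% lower.

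Marker RNA of other cell types was small beside that of the myeloid lists. The summed level was 233 to 809 CPM over 8 erythroid markers, 5.77 to 75.1 over 5 eosinophil, 8.67 to 46.7 over 5 basophil or mast cell and 22.9 to 171 over 4 B cell markers. It was 0.142 to 1.73 CPM over the 3 T cell markers found and 30.1 to 59.5 over 6 stromal or endothelial ones. Eosinophil markers were at 5.77 to 14.2 CPM in replicate 1 and 29.6 to 75.1 in the others.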
